A study of Drosophila melanogaster with 20 samples.

Results

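The small heat-shock protein genes of Drosophila melanogaster were followed across sorted cells and whole brains of adult flies. The set held 9 genes, namely Hsp22, Hsp23, Hsp26, Hsp27, Hsp67Ba, Hsp67Bc, l(2)efl, CG4461 and CG7409. A gene was counted as measured where a probe set of the array named it, by its current or a former name, and named no other gene. By that rule 5 of the 9 genes were measured, with 7 probe sets in all, out of 11981 genes with a probe set of their own. Hsp26, Hsp27, CG4461 and CG7409 had 1 probe set each and l(2)efl had 3. Hsp22 was read only by 2 probe sets shared with its neighbour CG4456, which are described separately. Hsp23, Hsp67Ba and Hsp67Bc matched no probe set and were not analysed here.

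Small heat-shock proteins are chaperones built around an alpha-crystallin domain. They bind unfolding proteins without using ATP and hold them until ATP-driven chaperones such as Hsp70 refold them. In flies most of them are switched on by heat and other protein-damaging stress through the transcription factor Hsf, and several are also switched on by the moulting hormone ecdysone and during ageing. The heat-inducible members lie side by side in a cluster that also gives Hsp67Ba and Hsp67Bc their names. In the RefSeq gene table (Release 6 plus ISO1 MT assembly) the order along chromosome arm 3L was Hsp67Bc, CG4456, Hsp22, CG4461, Hsp26, Hsp67Ba, an antisense RNA gene, Hsp23 and Hsp27. CG7409 lay elsewhere on 3L and l(2)efl on 2R.

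Expression was measured on single-channel Affymetrix arrays in 4 groups of 5 arrays. Surface glia, the barrier-forming cells that wrap the brain, were sorted by GFP from the line 9-137. All glia were sorted from REPO-GFP flies, in which GFP marks cells that use the glial gene repo, and neurons from ELAV-GFP flies, in which it marks cells that use the neuronal gene elav. The unsorted whole brains were those of the wild-type strain Canton S. Males and females were pooled in every group, with 10 to 15 brains behind each sorted sample and 5 brains behind each whole-brain sample. All flies were raised at 16 °C or at room temperature, and the labels place replicates in different bottles and on different days. For sorting, brains were digested with 2 mg/mL collagenase at 37 °C, a temperature used to induce heat-shock genes in flies. Digestion was for 5 min at 500 rpm for surface glia, for 20 min at 500 rpm for all glia and for 20 min at 1000 rpm for neurons. Whether the whole brains were digested too is not stated in the labels. Digestion, sorting, line and cell type can therefore not be told apart in any comparison with whole brain, and line, digestion and cell type cannot be told apart between sorts. In pools of cells, more cells that express a gene and more RNA per cell cannot be told apart either.

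The array values were log2 levels per probe set, and a level of one probe set is not comparable with that of another. The background of each array was taken from 44 negative control probe sets, which target bacterial and artificial sequences. Their 95th percentile lay between 4.67 and 6.05 on surface glia arrays, between 4.70 and 6.08 on all glia arrays, between 4.12 and 4.63 on neuron arrays and between 3.64 and 3.83 on whole-brain arrays. A probe set under that percentile on its own array is called within the controls. The correlation between arrays of a group over all probe sets was 0.781 to 0.896 in surface glia, 0.763 to 0.937 in all glia, 0.966 to 0.978 in neurons and 0.993 to 0.997 in whole brain. Surface glia replicate 4 and all glia replicate 4 correlated least with their groups and had the highest backgrounds. The mean level of 6 surface glia marker genes was 12.40 to 13.06 in surface glia, 9.43 to 12.16 in all glia, 4.38 to 5.09 in neurons and 9.28 to 9.91 in whole brain. The mean level of 5 general glial markers was 10.71 to 11.49 in surface glia and 9.80 to 10.44 in all glia. It was 7.16 to 7.76 in neurons and 10.69 to 11.13 in whole brain, so all glia lay below whole brain. Single glial markers differed, with repo at a mean of 7.85 in all glia against 10.11 in whole brain, and loco at 9.69 against 8.03. The mean level of 4 neuronal markers was 11.73 to 12.84 in surface glia, 12.64 to 13.12 in all glia, 13.04 to 13.17 in neurons and 12.94 to 13.05 in whole brain, high in every group. The mean level of 7 fat body markers was 7.46 to 8.49 in surface glia, 6.47 to 7.28 in all glia, 5.25 to 5.66 in neurons and 5.65 to 6.33 in whole brain, and that of 6 hemocyte markers was 6.01 to 7.28 in surface glia, 5.70 to 6.44 in all glia, 4.93 to 5.17 in neurons and 4.83 to 5.37 in whole brain. The fat body markers did not move together. In surface glia Yp1, Yp2 and Yp3 averaged 12.69, 11.68 and 8.32, against 8.89, 6.96 and 5.83 in whole brain. For apolpp the means were 8.27 in surface glia and 10.97 in whole brain. Fbp1 and Fbp2 were within the controls on all surface glia arrays, and Lsp2 on all but 1. Whether fat body cells or hemocytes were in the sorts, and their part in the results, was not tested. Surface glia replicate 3 stood apart by muscle genes. The mean level of the 5 measured muscle markers, of 8, was 10.98 on that array, against 3.99 to 4.57 on the other surface glia arrays and 3.15 to 4.81 on all other arrays. Small heat-shock and chaperone results that rest on that array are given with and without it.

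More small heat-shock probe sets were called higher than whole brain in surface glia and in neurons than in all glia, and none was called lower. Directly between surface glia and all glia none was called either way. A difference was called where limma gave an adjusted p under 0.05 over all 18769 probe sets and a log2 difference of at least 1. In surface glia 4 of 7 probe sets were called higher than in whole brain, against 31.6% higher and 19.4% lower over the whole array. In all glia 2 of 7 were called higher, near the share over the whole array, which was 24.7% higher and 14.8% lower. In neurons 4 of 7 were called higher, against 3.79% higher and 9.85% lower over the whole array. These counts moved with quantile normalization. After it CG4461 was called in neither glial sort, and the l(2)efl probe set 1627242_at was not called in neurons. Hsp26 was then called higher in all glia and CG7409 lower in surface glia. The median log2 difference of the 7 probe sets from whole brain was 1.48 in surface glia, 0.53 in all glia and 1.61 in neurons, beside medians over all probe sets of 0.39 in surface glia, 0.31 in all glia and 0.27 in neurons. Background moved with these comparisons. Of the 44 negative controls, 32 were called higher than whole brain in surface glia, 28 in all glia and 0 in neurons, with median log2 differences of 1.18 in surface glia, 1.12 in all glia and 0.50 in neurons. A sign of RNA quality moved with these comparisons as well. The 3′ minus 5′ log2 difference of the control probe sets for eIF-4a averaged 4.06 in surface glia (3.64 to 4.53), 4.24 in all glia (2.37 to 5.92), 4.96 in neurons (4.5 to 5.65) and 2.25 in whole brain (1.98 to 2.58). The parts of background and of this 3′ excess in the counts were not tested. The 3 comparisons share the same 5 whole-brain arrays and are not independent of each other.

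**Figure D1:**
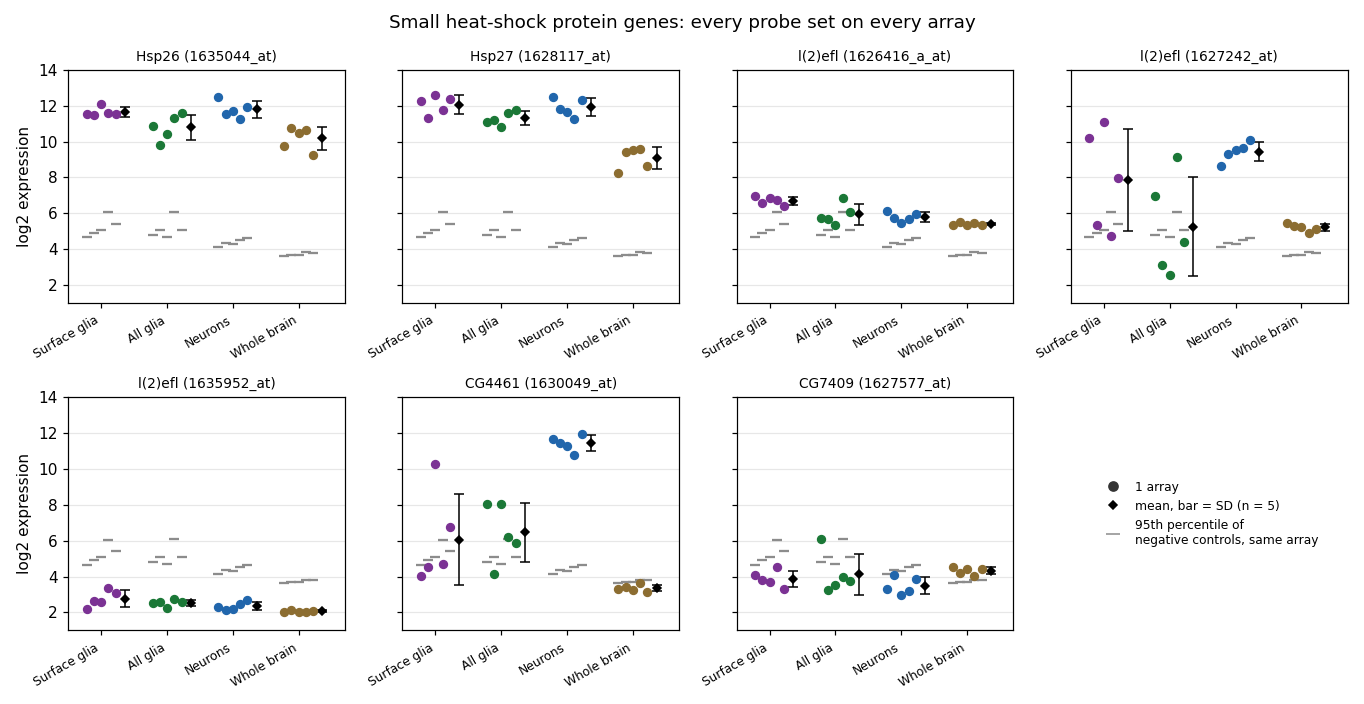
Log2 level (vertical axis) of each of the 7 probe sets of small heat-shock genes on each array, with surface glia, all glia, neurons and whole brain from left to right. Points are single arrays in replicate order, diamonds are group means with the SD (n = 5), and grey dashes mark the 95th percentile of the 44 negative controls of the same array. Hsp27 was above every whole-brain array in all 15 sorted samples, and CG4461 was at 10.75 to 11.94 in neurons and within the controls on all 5 whole-brain arrays.

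Hsp27, the last gene of the cluster, encodes a small heat-shock protein found mostly in the nucleus. Its probe set (1628117_at) had log2 levels of 12.24, 11.33, 12.59, 11.74 and 12.37 in surface glia. It had 11.09, 11.22, 10.79, 11.58 and 11.76 in all glia and 12.50, 11.82, 11.62, 11.27 and 12.29 in neurons. Whole brains had 8.27, 9.39, 9.53, 9.59 and 8.61. Every sorted sample thus lay above every whole brain, and the ranges of the 3 sorts overlapped. The means were 12.05 ± 0.51 in surface glia, 11.29 ± 0.39 in all glia, 11.90 ± 0.50 in neurons and 9.08 ± 0.60 in whole brain (SD, n = 5 each). Relative to whole brain Hsp27 was higher by a log2 difference of 2.98 in surface glia (7.87-fold, SE 0.32, adjusted p = 8.68e-07), 2.21 in all glia (4.63-fold, SE 0.32, adjusted p = 3.31e-05) and 2.82 in neurons (7.07-fold, SE 0.32, adjusted p = 1.66e-06). Among all 18769 probe sets these were the 171st, 98th and 36th largest rises of their comparisons. Between the sorts Hsp27 was not called. The log2 difference was 0.15 for surface glia minus neurons (adjusted p = 0.687), −0.61 for all glia minus neurons (adjusted p = 0.148) and 0.77 for surface glia minus all glia (adjusted p = 0.187).

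Hsp26, next to CG4461 in the cluster, encodes a cytosolic small heat-shock protein that flies also make in the germ line without heat. Its probe set (1635044_at) had log2 levels of 11.55, 11.46, 12.11, 11.58 and 11.53 in surface glia. All glia had 10.87, 9.83, 10.41, 11.30 and 11.58, and neurons had 12.48, 11.51, 11.72, 11.27 and 11.94. Whole brains had 9.73, 10.74, 10.48, 10.65 and 9.25. Surface glia and neurons lay wholly above whole brain, while all glia overlapped with it. Hsp26 averaged 11.65 ± 0.26 in surface glia, 10.80 ± 0.70 in all glia, 11.78 ± 0.46 in neurons and 10.17 ± 0.65 in whole brain (SD, n = 5 each). The log2 difference from whole brain was 1.48 in surface glia (2.78-fold, SE 0.34, adjusted p = 0.00095) and 1.61 in neurons (3.06-fold, SE 0.34, adjusted p = 0.00199), and both were called. In all glia it was 0.63 (SE 0.34, adjusted p = 0.122), which was not called. All glia minus neurons gave −0.99 (adjusted p = 0.055), just short of both thresholds, and was called after median centring of each array (−1.14, adjusted p = 0.0309) and without all glia replicate 5 (−1.18, adjusted p = 0.0389). Surface glia minus all glia gave 0.85 (adjusted p = 0.169) and surface glia minus neurons gave −0.14 (adjusted p = 0.737). Without surface glia replicate 3 the difference between surface glia and whole brain was 1.36 (adjusted p = 0.00305).

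Whole brain was not free of these transcripts. Hsp26 and Hsp27 were above the controls on all 5 whole-brain arrays, and their spread there was wide for that group. Their SDs in whole brain were 0.65 and 0.60, against a median SD of 0.15 over all probe sets in whole brain. For both genes the lowest 2 whole-brain arrays were replicates 1 and 5.

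CG4461, which lies between Hsp22 and Hsp26, carries an alpha-crystallin domain and is little studied. Its probe set (1630049_at) had log2 levels of 11.67, 11.43, 11.27, 10.75 and 11.94 in neurons, all above the controls. Surface glia had 4.05, 4.53, 10.25, 4.72 and 6.76, of which only replicates 3 and 5 were above the controls. All glia had 8.02, 4.14, 8.04, 6.20 and 5.89, with 4 of 5 above the controls. Whole brains had 3.32, 3.42, 3.25, 3.62 and 3.15, all within the controls. CG4461 was thus high in every neuron sample, scattered in the glial sorts and at background in whole brain. The means were 6.06 ± 2.56 in surface glia, 6.46 ± 1.64 in all glia, 11.41 ± 0.45 in neurons and 3.35 ± 0.18 in whole brain (SD, n = 5 each). Because whole brain gives only a bound, the difference in neurons is stated as a lower limit, taken against the mean percentile of the whole-brain controls. CG4461 was higher in neurons by a log2 difference of at least 7.69 (adjusted p = 1.51e-06). It was called higher in surface glia (adjusted p = 0.0125) and in all glia (adjusted p = 0.00646), with fitted differences of 2.71 and 3.11 (SE 0.89 each). Their size is uncertain, since 3 of 5 surface glia arrays and 1 of 5 all glia arrays were within their own controls. Without surface glia replicate 3, the array with muscle RNA, the fitted difference in surface glia was 1.66 (n = 4, adjusted p = 0.0294) at a mean of 5.01, below the mean background of that group, 5.23. After quantile normalization neither glial sort passed for CG4461 (adjusted p = 0.0888 in surface glia and 0.0524 in all glia).

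CG4461 also differed between the neuron sort and the glial sorts, where cell type, line and digestion cannot be told apart. It was lower in surface glia than in neurons by a log2 difference of −5.35 (SE 0.89, adjusted p = 0.000256) and lower in all glia than in neurons by −4.95 (SE 0.89, adjusted p = 0.00167). No glial array reached the lowest neuron array. The size of both is uncertain, because arrays within the controls entered the glial means. Without surface glia replicate 3 the first was −6.40 (adjusted p = 9.5e-07). The glial sorts differed from each other by −0.40 for surface glia minus all glia (adjusted p = 0.895).

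**Figure D2:**
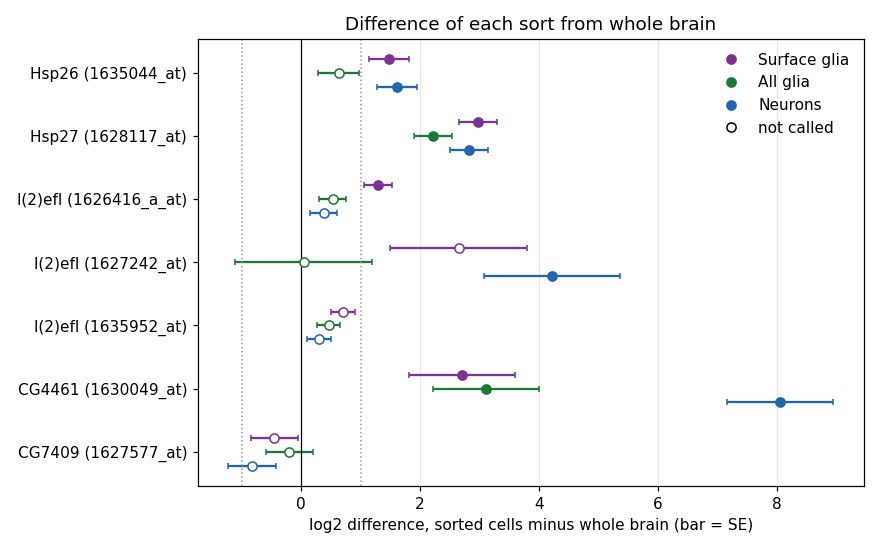
Log2 difference (horizontal axis) of surface glia, all glia and neurons from whole brain for each of the 7 small heat-shock probe sets. Points are fitted differences, bars are standard errors, filled points passed both thresholds and dotted lines mark a difference of 1 in either direction. For CG4461, at background in whole brain, the fitted values were 2.71 in surface glia, 3.11 in all glia and 8.06 in neurons, while for Hsp27 the sorts lie between 2.21 and 2.98.

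The gene l(2)efl encodes a small heat-shock protein related to vertebrate alphaB-crystallin and is known for its expression in fly muscle. Its 3 probe sets gave 3 different pictures. The probe set 1635952_at was within the controls on all 20 arrays and carries no measurement.

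The l(2)efl probe set 1626416_a_at had log2 levels of 6.96, 6.57, 6.84, 6.75 and 6.42 in surface glia. All glia had 5.73, 5.71, 5.36, 6.85 and 6.08 and neurons had 6.14, 5.74, 5.47, 5.69 and 5.94. Whole brains had 5.38, 5.50, 5.37, 5.46 and 5.37. Surface glia lay wholly above neurons and whole brain, and overlapped with all glia only through all glia replicate 4. The log2 difference from whole brain was 1.29 in surface glia (2.45-fold, SE 0.23, adjusted p = 0.000106), which was called. It was 0.53 in all glia (adjusted p = 0.0528) and 0.38 in neurons (adjusted p = 0.216). Surface glia minus neurons was 0.91 (SE 0.23, adjusted p = 0.00502), which passed the p threshold but not the minimum of 1. The median rise of negative controls between surface glia and whole brain, 1.18, was close to the called difference of this low probe set. The part of background in it was not tested.

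The l(2)efl probe set 1627242_at had log2 levels of 8.66, 9.32, 9.50, 9.64 and 10.06 in neurons. Surface glia had 10.20, 5.34, 11.08, 4.76 and 7.95, and all glia had 6.99, 3.15, 2.58, 9.15 and 4.39. Whole brains had 5.45, 5.29, 5.26, 4.92 and 5.15. Neurons lay wholly above whole brain with an SD of 0.51, whereas the glial sorts spread over SDs of 2.82 and 2.76 and overlapped with all other groups. The mean was 7.87 in surface glia, 5.25 in all glia, 9.44 in neurons and 5.21 in whole brain. Neurons were higher than whole brain by a log2 difference of 4.22 (18.7-fold, SE 1.15, adjusted p = 0.0136), the 7th largest rise of that comparison, which missed the threshold after quantile normalization (3.96, adjusted p = 0.0512). The SE rests on 1 spread shared by all 4 groups, so the wide glial SDs enter it, while the whole-brain SD was 0.20. Surface glia minus whole brain was 2.65 (SE 1.15, adjusted p = 0.0502), which missed the threshold, and without surface glia replicate 3 it was 1.85 (adjusted p = 0.156). It passed without surface glia replicate 2 (3.28, adjusted p = 0.0201) or replicate 4 (3.43, adjusted p = 0.0145). All glia minus whole brain was 0.04 (adjusted p = 0.98).

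All glia were lower than neurons on the same l(2)efl probe set, 1627242_at, by a log2 difference of −4.18 (SE 1.15, adjusted p = 0.0281), although all glia replicate 4 lay within the neuron range. Only 2 of 5 all glia arrays were above the controls, so the size of this difference, and of that between all glia and whole brain, is uncertain. This call was lost in 5 of 10 fits that each left out 1 array, where the difference over all 10 ran from −5.16 to −3.52, and after quantile normalization (−3.99, adjusted p = 0.0778). The 5 arrays were all glia replicates 2 and 5 and neuron replicates 2, 3 and 4. Surface glia minus neurons was −1.57 (adjusted p = 0.249) and surface glia minus all glia was 2.61 (adjusted p = 0.228). The last passed without all glia replicate 4 (3.59, adjusted p = 0.0421).

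Surface glia replicate 3 had both the highest muscle marker level, 10.98, and the highest l(2)efl level, 11.08. Surface glia replicate 1 had a muscle marker level of 3.99 with an l(2)efl level of 10.20. In neurons the mean muscle marker level was 4.26 to 4.64, at l(2)efl levels of 8.66 to 10.06, but single markers differed. The giant muscle protein gene bt was 8.08, 8.72, 7.94, 6.14 and 7.75 in neurons and was called higher there than in whole brain (3.91, SE 1.09, adjusted p = 0.0154), where it averaged 3.82. The titin gene sls was above the controls on all arrays of every group, and up, a troponin gene, on 1 of 5 neuron arrays. Mlc2, a myosin light chain, and TpnC41C, a troponin C, were within the controls on all neuron and all whole-brain arrays. Of the 5 markers 3 were called higher than whole brain in surface glia, 1 in all glia and 1 in neurons. All 5 were highest on replicate 3 among surface glia arrays. There Mlc2 was 12.61 against 2.95 to 3.72 on the others, TpnC41C 11.80 against 3.38 to 3.89, and up 10.98 against 4.49 to 4.97. For bt it was 11.45 against 2.92 to 5.80, and for sls 8.06 against 5.34 to 6.39. The surface glia count was not recomputed without that array. Over the whole array 31.6%, 24.7% and 3.79% were called higher in these comparisons. The part of muscle RNA in the l(2)efl levels was not tested.

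CG7409, which also carries an alpha-crystallin domain, was near background. Its probe set (1627577_at) was within the controls on all surface glia arrays and all neuron arrays, and on 4 of 5 all glia arrays. It had log2 levels of 4.07, 3.79, 3.68, 4.52 and 3.28 in surface glia. It had 6.07, 3.27, 3.52, 4.0 and 3.74 in all glia and 3.31, 4.10, 2.96, 3.22 and 3.87 in neurons. Whole brains had 4.53, 4.21, 4.41, 4.04 and 4.42, all above their own controls, which were lower. No comparison was called, with adjusted p = 0.325 for surface glia, 0.692 for all glia and 0.13 for neurons against whole brain. The size and direction of these differences cannot be given, because mean background in each sort was above the whole-brain mean.

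Directly between the sorts, the only calls among the 7 probe sets were of CG4461 and l(2)efl 1627242_at, all lower than in neurons. For surface glia minus neurons 0 were called higher and 1 lower, near the share over the whole array, which was 10.5% higher and 15.0% lower. For all glia minus neurons 0 were called higher and 2 lower, against 3.18% higher and 4.35% lower over the whole array. For surface glia minus all glia 0 were called either way, near the share over the whole array, which was 2.46% higher and 2.29% lower. The median log2 differences of the 7 probe sets were 0.15, −0.61 and 0.76 in these comparisons, beside 0.36, 0.27 and 0.05 over all probe sets. The order of the means from high to low was surface glia, neurons, all glia and whole brain for Hsp27, and neurons, surface glia, all glia and whole brain for Hsp26. Neighbouring sorts in these orders did not pass the thresholds against each other.

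Hsp22, a small heat-shock protein of the mitochondrial matrix, overlaps with CG4456, once called Hsp67Bb, and both probe sets that read it carry both names. Their values therefore cannot be given to either gene. The first (1629061_s_at) had log2 levels of 10.96, 9.89, 11.15, 10.77 and 10.90 in surface glia. It had 10.43, 9.31, 10.06, 10.54 and 10.85 in all glia and 12.28, 11.44, 11.46, 10.54 and 11.59 in neurons. Whole brains had 7.54, 8.47, 8.51, 8.80 and 7.39. As for Hsp27, every sorted sample was above every whole brain. The log2 difference from whole brain was 2.59 in surface glia (6.03-fold, SE 0.36, adjusted p = 1.45e-05), 2.10 in all glia (4.28-fold, SE 0.36, adjusted p = 0.000143) and 3.32 in neurons (9.99-fold, SE 0.36, adjusted p = 1.08e-06). All glia were lower than neurons by −1.22 (adjusted p = 0.0352), a call lost in 5 of 10 fits that each left out 1 array, namely all glia replicate 2 and neuron replicates 1, 2, 3 and 5.

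The second probe set of Hsp22 and CG4456 (1630487_s_at) was within the controls in surface glia, all glia and whole brain. Neurons had log2 levels of 8.29, 7.12, 4.96, 3.86 and 6.18, of which 4 were above the controls. Neurons were called higher than whole brain (adjusted p = 0.000185), with a fitted log2 difference of 3.21 whose size is uncertain. The lowest neuron array was below the highest surface glia array.

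Hsp70, the ATP-driven chaperone that takes over from small heat-shock proteins, is encoded by near-identical copies in flies, and every probe set that reads a copy names several genes. These probe sets disagreed. The probe set 1629827_s_at, which names Hsp70Ba, Hsp70Bb, Hsp70Bbb and Hsp70Bc, had log2 levels of 12.43, 12.32, 11.62, 11.36 and 11.98 in surface glia. It had 10.46, 10.87, 10.62, 10.44 and 12.12 in all glia and 13.22, 12.95, 12.73, 12.73 and 12.97 in neurons. Whole brains had 4.99, 4.99, 4.54, 5.09 and 4.25. Its rise was among the largest of the whole array. The log2 difference from whole brain was 7.17 in surface glia (SE 0.30, adjusted p = 1.19e-11), 6.13 in all glia (SE 0.30, adjusted p = 4.26e-11) and 8.15 in neurons (SE 0.30, adjusted p = 3.59e-13), the 2nd, 3rd and 1st largest rise of their comparisons. All glia were lower than neurons by −2.02 (adjusted p = 0.000198). Surface glia were called higher than all glia (1.04, adjusted p = 0.0447). That call was lost in 8 of 10 fits that left out 1 array and after median centring (1.06, adjusted p = 0.0624).

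The probe set 1626821_s_at, which names the same Hsp70B genes, had high levels in every group. Its mean was 11.82 in surface glia, 10.97 in all glia, 12.56 in neurons and 11.99 in whole brain. The log2 difference from whole brain was −0.17 in surface glia (adjusted p = 0.703), −1.01 in all glia (adjusted p = 0.0262, called lower) and 0.57 in neurons (adjusted p = 0.258). The call in all glia was lost in 6 of 10 fits that left out 1 array and after quantile normalization (−0.67, adjusted p = 0.179). The probe set 1639571_s_at, which names Hsp70Aa and Hsp70Ab, averaged 11.43 in surface glia, 10.24 in all glia, 11.62 in neurons and 12.73 in whole brain. It was called lower than whole brain in surface glia (−1.30, adjusted p = 0.00972) and in all glia (−2.49, adjusted p = 0.00011), and in neurons the difference was −1.12 (adjusted p = 0.0559). The surface glia call was lost after quantile normalization (−1.0, adjusted p = 0.0637). The probe set 1632841_x_at, which names Hsp70Bb and Hsp70Bc, had log2 levels of 10.75, 9.71, 10.64, 10.07 and 9.51 in surface glia and 8.68, 10.74, 8.84, 10.32 and 9.75 in all glia. It had 11.65, 10.64, 10.70, 10.39 and 11.05 in neurons and 9.63, 11.28, 11.28, 11.21 and 10.18 in whole brain, so all groups overlapped. It was called lower than whole brain in all glia (−1.05, adjusted p = 0.0398), a call lost in 6 of 10 fits that left out 1 array and after quantile normalization (−0.66, adjusted p = 0.273), and in surface glia and neurons it was not called (−0.58 and 0.17). The part of the transcript that each of these probe sets reads is not given in the sources used here.

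**Figure D3:**
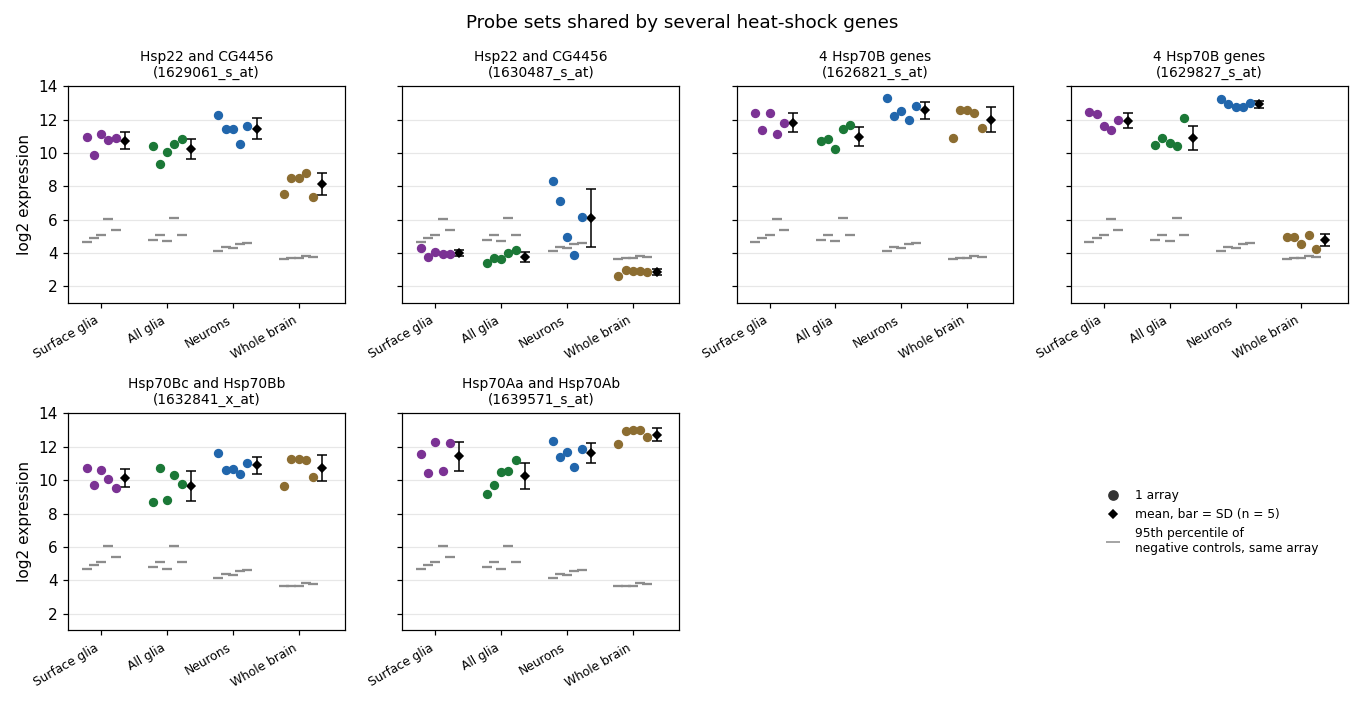
Log2 level (vertical axis) on each array of 6 probe sets that name Hsp22 with CG4456 or several Hsp70 genes, with surface glia, all glia, neurons and whole brain from left to right. Points are single arrays, diamonds are group means with the SD (n = 5), and grey dashes mark the 95th percentile of the negative controls. Of the pair of probe sets that name the same 4 Hsp70B genes, 1629827_s_at averaged 4.77 in whole brain and 10.90 to 12.92 in the sorts, while 1626821_s_at averaged 11.99 in whole brain and 10.97 to 12.56 in the sorts.

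Within groups, some of the inducible probe sets varied together from sample to sample and others did so less. After each group's mean was subtracted, Pearson's r over the 20 arrays was 0.75 for Hsp26 and Hsp27. For the Hsp22 and CG4456 probe set 1629061_s_at it was 0.89 with Hsp26 and 0.84 with Hsp27. For the Hsp70B probe set 1626821_s_at it was 0.92 with Hsp27 and 0.76 with Hsp26. For 1629827_s_at, which names the same Hsp70B genes, it was 0.28 with Hsp27, 0.37 with Hsp26 and 0.26 with 1629061_s_at. DnaJ-1 had 0.54 with Hsp27 and 0.27 with Hsp26. For CG4461 it was 0.34 with Hsp26, its neighbour in the cluster, and 0.27 with Hsp27. For l(2)efl (1626416_a_at) it was 0.54 with Hsp26 and 0.49 with Hsp27. These values are descriptions, since the points of a pair share array, sample quality and normalization.

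A list of 12 other genes, called inducible chaperones here, held the Hsp70 genes and also the transcription factor Hsf. Of these 12, 4 had a probe set of their own, Hsf among them, and those 4 had smaller fitted differences from whole brain than Hsp27. In surface glia 1 was called higher than whole brain and 0 lower, in all glia 0 either way, and in neurons 1 higher and 0 lower. Their median log2 difference from whole brain was 0.45 in surface glia, −0.04 in all glia and 0.71 in neurons. Shares called over the whole array were 31.6% higher and 19.4% lower in surface glia, 24.7% and 14.8% in all glia, and 3.79% and 9.85% in neurons. The called gene was stv, the fly BAG3 cochaperone, which links Hsp70 and small heat-shock proteins in muscle. Its log2 levels were 10.81, 11.58, 11.95, 10.65 and 10.97 in surface glia, 10.20, 10.26, 10.29, 9.62 and 11.47 in all glia, 11.93, 11.28, 11.35, 10.91 and 11.68 in neurons, and 9.59, 9.95, 10.49, 10.52 and 10.33 in whole brain. Surface glia and neurons lay wholly above whole brain. The log2 difference of stv was 1.02 in surface glia (SE 0.32, adjusted p = 0.00976), 0.19 in all glia (adjusted p = 0.638) and 1.25 in neurons (SE 0.32, adjusted p = 0.00908). Without surface glia replicate 3 the surface glia value was 0.83 (adjusted p = 0.0324), under the minimum of 1, and it also fell short without surface glia replicate 2 or whole-brain replicate 1 or 2.

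Hsp68, a heat-inducible Hsp70 relative, was high in every group. It averaged 12.36 ± 0.77 in surface glia, 11.90 ± 0.40 in all glia, 12.52 ± 0.42 in neurons and 11.93 ± 0.70 in whole brain (SD, n = 5 each), with log2 differences from whole brain of 0.43, −0.03 and 0.59 in the 3 sorts, none called. DnaJ-1, an Hsp40 cochaperone of Hsp70, averaged 13.06 in surface glia, 12.53 in all glia, 13.19 in neurons and 12.59 in whole brain. Its log2 differences from whole brain were 0.47 (adjusted p = 0.0357), −0.06 (adjusted p = 0.801) and 0.60 (adjusted p = 0.0291) in the same sorts, below the minimum of 1. Hsf, the transcription factor that activates heat-shock genes, had log2 differences from whole brain of −1.0 in surface glia (adjusted p = 0.135), −0.64 in all glia (adjusted p = 0.368) and 0.82 in neurons (adjusted p = 0.298). Surface glia were lower than neurons in Hsf by −1.82 (SE 0.58, adjusted p = 0.0177), with no overlap of arrays. Hsp83, the fly Hsp90, had no probe set of its own here.

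**Figure D4:**
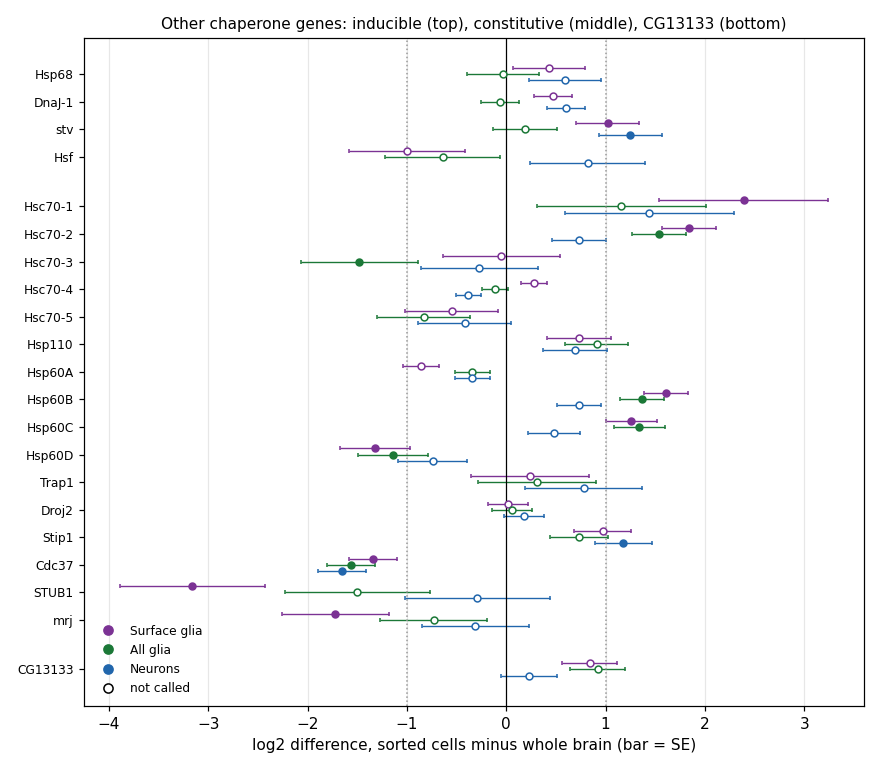
Log2 difference (horizontal axis) of surface glia, all glia and neurons from whole brain for 4 genes of the inducible chaperone list, Hsf among them (top), 16 constitutive chaperone genes (middle) and the small heat-shock relative CG13133 (bottom). Points are fitted differences, bars are standard errors, filled points passed both thresholds and dotted lines mark a difference of 1 in either direction. Among the 4 genes at the top only stv passed, at 1.02 in surface glia and 1.25 in neurons.

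Constitutive chaperones, which work without stress, were called in both directions, as were probe sets over the whole array. Of 17 genes on the list 16 were measured. In surface glia 4 were called higher than whole brain and 4 lower, in all glia 3 and 3, and in neurons 1 and 1, with medians of 0.13, −0.03 and −0.05. Over the whole array 31.6% were higher and 19.4% lower in surface glia, 24.7% and 14.8% in all glia, and 3.79% and 9.85% in neurons. STUB1, a ubiquitin ligase that works with Hsp70, was lower in surface glia (−3.16, SE 0.73, adjusted p = 0.00105), at 5.92 against 9.08 in whole brain. The Hsp40 gene mrj was lower as well (−1.72, SE 0.54, adjusted p = 0.00931), a call lost after quantile normalization (−1.16, adjusted p = 0.139). Hsc70-1 was higher in surface glia (2.39, SE 0.85, adjusted p = 0.0185), but its level was 12.47 on surface glia replicate 3 and 6.23 to 7.35 on the others, and without that array the difference was 1.22 (adjusted p = 0.0164). With only surface glia and whole brain in the fit, Hsc70-1 missed the threshold (adjusted p = 0.0634). Hsc70-2 was called higher in surface glia (adjusted p = 2.49e-05), but it was within the controls in whole brain and its surface glia mean of 5.21, with 3 of 5 arrays above the controls, lay under the mean background of 5.23, so no size is given. Of the 3 further small heat-shock relatives only CG13133 had a probe set of its own. It averaged 5.87 in surface glia, 5.95 in all glia, 5.26 in neurons and 5.03 in whole brain, and its differences from whole brain of 0.84, 0.92 and 0.23 in the sorts were below the minimum of 1.

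Of 13 genes of general stress signalling 9 were measured, with 1 called higher and 2 lower than whole brain in surface glia, 0 and 1 in all glia, and 0 and 2 in neurons. Their median log2 difference from whole brain was −0.12 in surface glia, −0.55 in all glia and −0.05 in neurons, beside 0.39, 0.31 and 0.27 over all probe sets. Shares called over the whole array were 31.6% higher and 19.4% lower in surface glia, 24.7% and 14.8% in all glia, and 3.79% and 9.85% in neurons. Gadd45, which is induced by DNA damage and JNK signalling, was lower in all 3 sorts, at −1.20 in surface glia (adjusted p = 0.000887), −1.50 in all glia (adjusted p = 0.000223) and −1.77 in neurons (adjusted p = 8.57e-05). Atf3, a stress-responsive transcription factor, was lower in surface glia (−2.06, adjusted p = 0.0165). Hr38, an activity-regulated nuclear receptor, was higher in surface glia (1.59, adjusted p = 0.0198), a call lost without surface glia replicate 2 (1.24, adjusted p = 0.0629) and with array weights (1.86, adjusted p = 0.0673). After quantile normalization the surface glia calls of Gadd45 (−0.72, adjusted p = 0.0753) and Atf3 (−1.95, adjusted p = 0.069) were lost. The fly Atf4 gene crc was lower in neurons (−1.50, adjusted p = 5.15e-06).

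The genes most like Hsp26, Hsp27, l(2)efl and CG4461 were taken by Pearson's r of log2 levels over the 20 arrays, 1 probe set per gene, among genes outside the small heat-shock set that had a probe set of their own. Members and shared probe sets, left out of that search, were as close or closer for some. Over the same arrays Hsp26 had r = 0.85 with Hsp27, and the Hsp22 and CG4456 probe set 1629061_s_at had r = 0.90 with Hsp26 and 0.95 with Hsp27. The Hsp70B probe set 1629827_s_at had r = 0.93 with Hsp27. For Hsp27 the closest gene in the search was the alphagamma-element (lncRNA:alphagamma-element:CR32865, r = 0.946), a heat-inducible non-coding RNA of the Hsp70 locus, followed by Culd (r = 0.886) and CG9205 (r = 0.884). The alphagamma-element averaged 11.85 in surface glia, 11.60 in all glia, 12.29 in neurons and 8.13 in whole brain. Its log2 differences from whole brain were 3.73, 3.47 and 4.16 in the sorts (adjusted p = 3.45e-10, 1.04e-09 and 3.38e-11). For Hsp26 the closest in the search were the alphagamma-element (r = 0.764), cora (r = 0.760) and stv (r = 0.757). For l(2)efl, by its probe set with the highest mean, they were Gr77a (r = 0.776), Rpn8 (r = 0.765) and asf1 (r = 0.750). For CG4461 they were Tektin-C (r = 0.876), CG31219 (r = 0.856) and mthl8 (r = 0.851), and all 3 had their highest group mean in neurons. The correlations carry the differences between groups as well as those between samples.

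**Figure D5:**
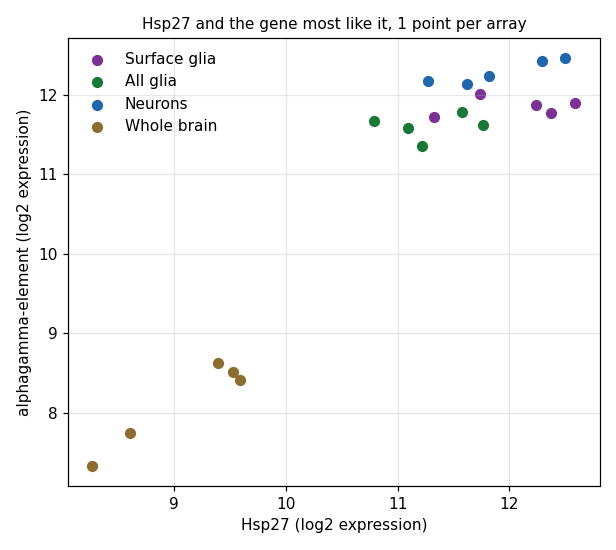
Log2 level of Hsp27 (horizontal axis) against log2 level of the alphagamma-element (vertical axis), 1 point per array, coloured by surface glia, all glia, neurons and whole brain. The 5 whole-brain arrays lie apart at low levels of both, Hsp27 at 8.27 to 9.59, and the 15 sorted samples lie together at high levels of both.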

How the data were processed

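The deposited values were log2 expression levels per probe set, which the authors normalized and summarised across arrays. Per the submitters' processing notes the tools were RMA, affy and limma, whose versions are not given in the sources used here. That the scale is log2 rests on RMA being named and on the range of the values. Per the labels' protocols, RNA was amplified and labelled with biotin. Of 18952 probe sets, 183 control probe sets were left out and 18769 tested. Symbols came from the platform annotation, matched to the RefSeq gene table, with 13646 probe sets naming 1 gene, 402 several and 4721 none.

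One fit of all 20 arrays, with 1 mean per group, was made with limma 3.58.1 in R 4.3.3. The spread of a probe set was 1 estimate shared by all 4 groups, although their spreads were unequal. The median SD over all probe sets was 0.58 in surface glia, 0.59 in all glia, 0.27 in neurons and 0.15 in whole brain. An SE is therefore not the spread of the 2 groups compared alone. P-values were moderated by empirical Bayes and adjusted by Benjamini-Hochberg over all probe sets of each of 6 comparisons. The fit was tested on simulated data only for changes planted in neurons, against whole brain. The simulation held no background shift and no outlying array, so it says nothing of the glial comparisons. Where every array of one group was within the negative controls and every array of the other above them, the difference is a lower limit against the mean of their 95th percentile, and where only some arrays were above them, its size is uncertain. Precision is limited by having 5 arrays per group.

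The text names every probe set of a member, the shared probe sets, and from the chaperone and stress lists Hsf, Hsp83, Hsp68, DnaJ-1, stv, every small relative and up to 4 called genes per list with the largest differences from whole brain. A list gene with several probe sets was represented by that with the highest mean. It also names the 3 genes, outside the members, most correlated with each of Hsp26, Hsp27, l(2)efl and CG4461. The rule for this search left out CG7409. Members and lists were chosen with earlier results of these data known. Alternatives were quantile normalization, median centring, array weights, a trended robust prior, only the groups compared, a filter on dim probe sets, the replicate block, and leaving out arrays.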

Additional observations from a re-analysis of the deposited data

Results flagged for a closer look

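In 56 groups of 5 arrays, 3 had 1 array far from the others by Dixon's ratio of gap to range (critical value 0.71). That is near the share of about 1 in 20 that chance gives. Hsp26 in surface glia was highest on replicate 3, at 12.11 with the next array at 11.58 (ratio 0.815), the same array that carried the muscle markers. CG7409 in all glia was highest on replicate 1, at 6.07 with the next at 4.0 (ratio 0.739). The Hsp70B probe set 1629827_s_at in all glia was highest on replicate 5, at 12.12 with the next at 10.87 (ratio 0.744).

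For 3 results the difference from whole brain itself differed between sorts. CG4461 had a log2 difference of −5.35 for surface glia minus neurons (adjusted p = 0.000256) and −4.95 for all glia minus neurons (adjusted p = 0.00167). The l(2)efl probe set 1627242_at had −4.18 for all glia minus neurons (adjusted p = 0.0281). Their size is uncertain, since some glial arrays were within the controls. The cause of these differences was not tested.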

How the results depend on the processing

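Over the alternatives other than leaving out 1 array, 330 values of the 7 member probe sets were recomputed, of which 317 stayed on the same side of the thresholds, 4 were lost as calls and 9 were gained, and no called difference changed sign. Quantile normalization gave 1 member probe set lower than whole brain in surface glia (CG7409, −1.17, adjusted p = 0.0371, within the controls in surface glia). It gave 1 higher in surface glia than in neurons (l(2)efl 1626416_a_at, 1.05). It left 1 lower in all glia than in neurons (2 as reported). Median centring, and leaving out both replicates 4, gave 3 by adding Hsp26 (−1.14, adjusted p = 0.0309, and −1.11, adjusted p = 0.045). Quantile normalization ended the CG4461 calls in surface glia (2.09, adjusted p = 0.0888) and all glia (2.53, adjusted p = 0.0524) and the l(2)efl 1627242_at calls in neurons (3.96, adjusted p = 0.0512) and between all glia and neurons (−3.99, adjusted p = 0.0778). It also gained Hsp26 in all glia (1.01, adjusted p = 0.0401). The calls of Hsp27 in all 3 sorts and of CG4461 in neurons held under every alternative. Without all glia and surface glia replicates 4 together, 1 member probe set was higher in surface glia than in all glia (l(2)efl 1627242_at, 4.37, adjusted p = 0.0121). The same probe set passed for surface glia against whole brain (3.43, adjusted p = 0.00438), as it did with array weights (2.81, adjusted p = 0.00855). Leaving out 1 array gave 4 to 5 of the 7 probe sets higher than whole brain in surface glia. The added one was l(2)efl 1627242_at, a further probe set of a gene already counted. Such fits gave 1 to 2 lower in all glia than in neurons (without all glia replicate 2 or neuron replicate 2, 3 or 4). They gave 0 to 1 higher in surface glia than in all glia (without all glia replicate 4). Deviations of same-numbered arrays from their group means correlated between −0.02 and 0.38, with 2 of 30 over 0.1. Those 2 were between surface glia and all glia, at replicate 1 (0.20) and replicate 4 (0.38). Of 20 arrays, 10 correlated best with their own number, more than an even spread over 5 numbers would give. Whether same-numbered arrays were handled together was not tested, and the main fit did not take the numbers as pairs. With the replicate block no member call changed. On shared probe sets it ended the calls of 1632841_x_at in all glia against whole brain (−1.05, adjusted p = 0.0595) and 1629827_s_at in surface glia against all glia (1.04, adjusted p = 0.0538), and gained Hsp70Aa and Hsp70Ab in neurons (−1.12, adjusted p = 0.0438). The share of all probe sets called higher than whole brain was 14.8% in surface glia and 10.3% in all glia after quantile normalization, against 31.6% and 24.7%, and 7.18% in neurons after median centring, against 3.79%. Of all called probe sets in surface glia against whole brain, 62% were higher, against 51.3% after quantile normalization, and 62.6% against 49.8% in all glia. In neurons 27.8% were higher, against 45.6% after median centring. For surface glia minus neurons 41.1% were higher, against 30.3% after centring, and for all glia minus neurons 42.2%, against 28.9%. Quantile normalization moved the median over all probe sets by −0.21 in surface glia, −0.15 in all glia and −0.13 in neurons against whole brain. The causes were not tested. High background in the glial sorts limits what can be measured at low levels there.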

Other observations

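Whole-brain replicates 1 and 5 were the lowest 2 whole-brain arrays for 2 of 7 small heat-shock probe sets (Hsp26 and Hsp27), for 5 of 7 probe sets shared by Hsp22 or Hsp70 genes and for 2 of 4 genes of the inducible chaperone list. Over all 18769 probe sets the share was 9.26%. This was noticed after the values were seen and was not tested.

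The probe set 1626832_at, which names CG31343, Hsp70Bc and Hsp70Bb, had log2 levels of 3.60, 4.02, 6.35, 6.07 and 11.32 in surface glia. Only surface glia had arrays above the controls, 3 of 5, and replicate 5 alone was above 7.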
